A study of Mus musculus with 12 samples.

Results

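The insulin-like growth factor (IGF) system of the mouse left ventricle was followed through 9 genes, 1 ligand, 2 receptors and 6 binding proteins, in 12 libraries of polyadenylated RNA. The members were the rows of the gene count table named Igf1, Igf1r, Igf2r, Igfbp2, Igfbp3, Igfbp4, Igfbp5, Igfbp6 and Igfbp7. They were chosen by name, and all 9 of 9 were found among the 56748 genes of the table and passed the filter on low counts, as did 15742 genes in all. One passed it through a single group: Igfbp2 lay above the limit in 4 of 4 libraries of the infarcted control-vector hearts and in 0 libraries of the other groups.

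The hearts came from wild type C57BL/6J mice in 3 groups of 4. The first group received an AAV9 vector that overexpresses Irx3, which encodes an Iroquois homeobox transcription factor, and then underwent myocardial infarction (MI) by ligation of the left anterior descending coronary artery; it is called the Irx3 MI group. The second received the AAV9 control vector and MI (control MI), and the third the control vector and sham surgery (sham). Every mouse thus carried an AAV9 vector given by the tail vein, all tissue was taken 14 days after surgery, and the labels put all 12 libraries in 1 batch. Neither the promoter that drives Irx3 in the vector nor the age of the mice is stated in the labels, and there was no sham group with the Irx3 vector. An effect of Irx3 was therefore measured in infarcted hearts alone.

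IGF1 is a secreted growth factor made by the liver and, locally, by many other tissues, in the heart largely by cells other than cardiomyocytes. It acts through the receptor tyrosine kinase IGF1R, whose adaptors pass the signal to the PI3K-Akt and Ras-MAPK pathways, and it is known for growth and survival of cardiomyocytes. IGF2R binds IGF2 but not IGF1 with high affinity, does not signal as a kinase, and carries IGF2 and lysosomal enzymes to lysosomes. IGF binding proteins hold IGFs outside the cell, lengthen their life and limit or deliver them to the receptor, until proteases cut the binding protein and set the ligand free. IGFBP7 binds IGFs weakly and is abundant in vessels and stroma.

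The start regions of 4 members are shown because these genes took different courses: after infarction Igf1 and Igfbp5 were higher with Irx3, and Igfbp4 and Igfbp6 were lower; the call of Igfbp4 ended with a correction for GC content. Each is the 250 bases before the RefSeq gene start in build GRCm38.p6, 5′ to 3′ on the gene's strand, with matches to the searched motifs in capitals.
Igf1, chr10:87860861-87861110, plus strand: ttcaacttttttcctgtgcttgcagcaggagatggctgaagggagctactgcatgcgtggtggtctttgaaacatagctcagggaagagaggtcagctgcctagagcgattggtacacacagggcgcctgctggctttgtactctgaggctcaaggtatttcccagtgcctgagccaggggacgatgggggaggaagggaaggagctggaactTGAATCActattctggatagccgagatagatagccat
Igfbp5, chr1:72874866-72875115, minus strand: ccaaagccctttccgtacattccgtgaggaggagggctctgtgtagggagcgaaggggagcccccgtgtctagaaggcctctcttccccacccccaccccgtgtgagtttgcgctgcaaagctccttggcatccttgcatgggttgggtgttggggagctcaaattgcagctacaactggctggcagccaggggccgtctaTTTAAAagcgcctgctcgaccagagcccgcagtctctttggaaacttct
Igfbp4, chr11:99040994-99041243, plus strand: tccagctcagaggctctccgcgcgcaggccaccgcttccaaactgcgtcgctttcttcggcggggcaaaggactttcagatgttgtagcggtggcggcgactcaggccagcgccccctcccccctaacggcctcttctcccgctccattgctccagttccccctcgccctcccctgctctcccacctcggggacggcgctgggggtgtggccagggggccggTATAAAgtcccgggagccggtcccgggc
Igfbp6, chr15:102143936-102144185, plus strand: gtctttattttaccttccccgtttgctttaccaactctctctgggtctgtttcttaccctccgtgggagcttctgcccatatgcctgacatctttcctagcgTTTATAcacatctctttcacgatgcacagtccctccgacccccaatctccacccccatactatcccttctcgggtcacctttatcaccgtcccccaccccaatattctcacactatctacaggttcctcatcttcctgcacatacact

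5 short motifs were searched on both strands of these windows for all 9 members, which matched 10 RefSeq windows because Igfbp2 has 2. The letters ACANNTGT, a palindrome bound by Iroquois proteins, were in 0 of the 10 windows and in 6.31% of all 32851 RefSeq mouse windows of the same length. TGANTCA, the AP-1 motif, was in 6.75% of all windows and once each in that of Igf1, where it is capitalised, and in the second window of Igfbp2. TATAAA was in 12.4% of all windows and once each in those of Igfbp4 and Igfbp6, and TTTAAA in 12.1% and once in that of Igfbp5. GGGCGG, the GC box, was in 32.7% of all windows, and the windows of Igf1r, Igf2r, Igfbp7 and the first window of Igfbp2 held 2, 3, 4 and 3 copies of it, while the 4 printed windows held none. The printed windows of Igf1, Igfbp5, Igfbp4 and Igfbp6 were 52.8%, 58.8%, 69.2% and 49.6% G or C, against a median of 52.4% over all windows. A match is a string of letters and not a bound site, and a missing match says nothing about a factor outside this window.

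Depth ran from 13352604 to 19236721 counts in the Irx3 MI libraries, from 16081360 to 18738571 in the control MI libraries and from 15966982 to 18441830 in the sham libraries. The transgene checked the labels: Irx3 had 314, 513, 285 and 462 CPM (read counts normalised to library size, with TMM scaling) in Irx3 MI hearts, against 30.5, 27.3, 16.8 and 17.6 CPM in control MI hearts. That is 4.09 ± 0.25 on the log2 scale (SE), with an adjusted p of 1.48e-06 in edgeR. In an edgeR fit with a correction for GC content it was 4.70 (adjusted p = 2.51e-06). The labels name the cell type as cardiomyocytes, yet the summed CPM of 8 fibroblast markers ran from 3292 to 16020 in Irx3 MI hearts, from 9852 to 29910 in control MI hearts and from 2052 to 2442 in sham hearts, so the RNA is treated as that of whole left ventricle. The mitochondrial share of counts was 10.4% to 19.0% in Irx3 MI libraries, 0.926% to 5.64% in control MI libraries and 4.50% to 8.22% in sham libraries. Between the infarcted groups the log2 fold change of a gene followed the GC content of its transcripts: Spearman's rho was -0.67 over 15186 genes, which are not independent replicates. It was 0.04 for control MI against sham and -0.45 for Irx3 MI against sham. For the members and other IGF axis genes, fold changes and counts of calls from a fit with a GC correction are printed in the text beside those of Irx3 MI against control MI. For Irx3 MI against sham they are printed where they move a call or a value by over 1.5 times. Levels, shares, ratios and marker values are not corrected for GC content unless so stated. Whether the GC relation is technical was not tested.

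A gene is called changed where its adjusted p in edgeR's quasi-likelihood test, with Benjamini-Hochberg adjustment over all 15742 genes, is under 0.05. Such p-values measure the spread among these mice. In bulk tissue a smaller share of the cells that make a transcript and less of it per cell cannot be told apart. Where a log2 fold change in the text is followed by ±, the value after it is the standard error.

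**Figure D1:**
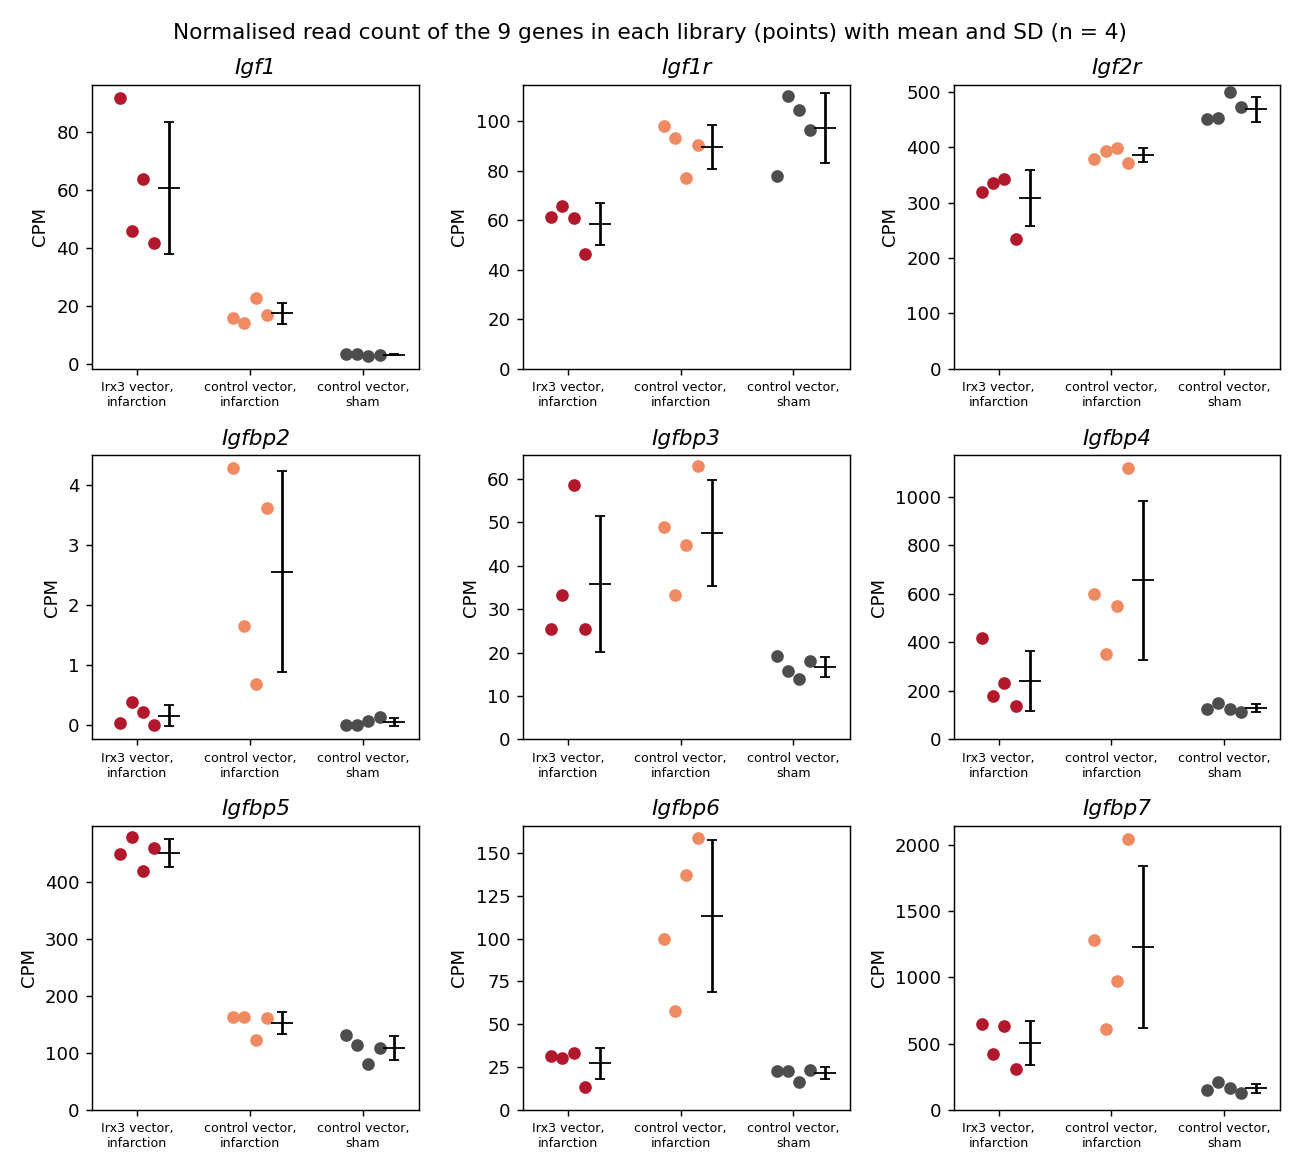
Level of each of the 9 genes in every library (CPM with TMM scaling, linear axis), for Irx3 MI, control MI and sham hearts in that order. There are 4 libraries a group, with the mean and SD of each group beside them. Igf1 lies between 41.7 and 92.0 CPM in Irx3 MI hearts, above every library of the other groups, and Igfbp6 in Irx3 MI hearts lies below every control MI library.

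Igf1, the ligand, was highest in infarcted hearts with Irx3, intermediate in infarcted hearts without it, and lowest in sham hearts. It had 92.0, 45.7, 63.8 and 41.7 CPM in Irx3 MI hearts, 15.6, 14.2, 22.6 and 16.9 CPM in control MI hearts, and 3.30, 3.45, 2.66 and 3.13 CPM in sham hearts. No library of one group reached into the range of another. The means were 60.8 ± 22.9, 17.3 ± 3.68 and 3.14 ± 0.343 CPM (SD, n = 4 each). Against control MI, Irx3 MI hearts held 3.51 times the level (log2 fold change 1.81 ± 0.23, adjusted p = 8.14e-05), and with the GC correction the difference was 1.10 ± 0.24 (adjusted p = 0.00672). Control MI hearts held 5.51 times the sham level (2.46 ± 0.26, adjusted p = 2.61e-05). Irx3 MI hearts held 19.4 times the sham level (4.27 ± 0.27, adjusted p = 3.38e-07), and with the GC correction the log2 fold change was 3.63.

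The signalling receptor moved the other way. Igf1r had 61.5, 65.7, 61.0 and 46.4 CPM in Irx3 MI hearts, 98.0, 93.3, 77.2 and 90.5 CPM in control MI hearts, and 77.9, 110.15, 104.7 and 96.6 CPM in sham hearts. All 4 Irx3 MI libraries lay below every other library, and the control MI and sham ranges overlapped. Irx3 MI was lower than control MI on the log2 scale, at -0.61 ± 0.14 (adjusted p = 0.00296), and by -0.64 with the GC correction (adjusted p = 0.00592). It was lower than sham by -0.73 ± 0.14 (adjusted p = 0.00058). Both calls ended when a change beyond 1.5-fold was asked for, at adjusted p = 0.457 and 0.127. For control MI against sham the difference was -0.12 ± 0.14 (adjusted p = 0.51, 95% interval -0.42 to 0.18).

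Igf2r, which clears IGF2 rather than signalling, had its lowest levels with Irx3, but the difference from control MI was not called. Its levels were 319.0, 335.7, 343.0 and 235.0 CPM in Irx3 MI hearts, 378, 392, 399 and 371 CPM in control MI hearts, and 451, 453, 499 and 472 CPM in sham hearts. The 3 groups did not overlap. The fall against sham in Irx3 MI hearts was called (-0.60 ± 0.14, adjusted p = 0.0023), and the call ended with the GC correction (-0.32, adjusted p = 0.0618). DESeq2, on the same counts, called Igf2r lower in Irx3 MI than in control MI and lower in control MI than in sham hearts. The differences of Irx3 MI from control MI (-0.32 ± 0.14, adjusted p = 0.0736; -0.11 with the GC correction) and of control MI from sham (-0.28 ± 0.14, adjusted p = 0.113) were not called in edgeR with TMM scaling. Airn, an RNA antisense to part of Igf2r, may share reads with it, since the strand setting of the counting is not given.

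The 6 binding proteins did not move together with Irx3. Of all 9 members, 2 were called higher and 5 lower in Irx3 MI than in control MI hearts, where 49.3% of all tested genes were called, 25.2% higher and 24.1% lower. The median log2 fold change of the members was -0.61, against 0.0015 over all tested genes. With the GC correction 2 were higher and 3 lower, where 2011 of all 15186 genes in that fit were higher and 1870 lower. In control MI against sham, 7 members were called higher and 0 lower, with a median of 2.36, where 48.7% of all genes were called, 26.3% higher and 22.4% lower. In Irx3 MI against sham, 5 were higher and 2 lower, where 62.9% of all genes were called, 35.2% higher and 27.7% lower. Igfbp2, which passed the filter through control MI alone, is counted as lower with Irx3 in both fits and as higher in control MI than in sham. Its part in these counts is no independent support for a direction. The comparisons share samples, so the counts are set side by side and nothing is read from their agreement.

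Igfbp5 was the binding protein that rose with Irx3. It had 448, 478, 419 and 459 CPM in Irx3 MI hearts, 163, 163, 122 and 161 CPM in control MI hearts, and 131, 114, 80.1 and 109 CPM in sham hearts. Every Irx3 MI library lay above every other library, and control MI overlapped sham. Igfbp5 is the most conserved family member, binds extracellular matrix and can potentiate or restrain IGF action. The means were 451 ± 24.6, 152 ± 20.0 and 109 ± 21.1 CPM (SD, n = 4 each). Irx3 MI held 2.97 times the control MI level (1.57 ± 0.16, adjusted p = 2.46e-05; 1.66 with the GC correction) and 4.15 times the sham level (2.05 ± 0.16, adjusted p = 1.4e-06). Control MI was higher than sham by 0.49 ± 0.16 (adjusted p = 0.0204), a call that ended without sham replicate 3 (0.36, adjusted p = 0.0685) and without control MI replicate 1 (0.40, adjusted p = 0.0823), 2 (0.40, adjusted p = 0.0675) or 4 (0.39, adjusted p = 0.0686).

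Igfbp6, which prefers IGF2 to IGF1, fell the most steeply of the well-counted members. It had 31.3, 30.2, 33.4 and 13.5 CPM in Irx3 MI hearts, 99.7, 57.6, 137 and 159 CPM in control MI hearts, and 22.7, 22.9, 16.1 and 23.5 CPM in sham hearts. All Irx3 MI libraries were below all control MI libraries, and they overlapped those of sham. Irx3 MI was lower than control MI by -2.06 ± 0.31 (adjusted p = 0.000227), and by -1.35 ± 0.29 with the GC correction (adjusted p = 0.00577). Control MI was higher than sham by 2.41 ± 0.32 (adjusted p = 9.76e-05). Irx3 MI differed from sham by 0.35 ± 0.31 (adjusted p = 0.332, 95% interval -0.31 to 1.02), and by 0.94 with the GC correction (adjusted p = 0.0166), where it is called. The first value misses the threshold, which does not show that the 2 groups are alike.

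Per kilobase of exon Igfbp7 was the most abundant member, and Igfbp4, a binding protein that mainly restrains IGF action, followed a similar order of groups. Igfbp7 had 649, 421, 630 and 309 CPM in Irx3 MI hearts, 1279, 613, 970 and 2047 CPM in control MI hearts, and 148, 212, 162 and 130 CPM in sham hearts. Igfbp4 had 419, 180, 231 and 137 CPM in Irx3 MI hearts, 600, 354, 551 and 1121 CPM in control MI hearts, and 124, 150, 126 and 112 CPM in sham hearts. In both genes control MI replicate 4 was the highest library and replicate 2 the lowest of its group, and the ranges of the infarcted groups overlapped. Irx3 MI was lower than control MI by -1.29 ± 0.34 for Igfbp7 (adjusted p = 0.00695) and by -1.44 ± 0.36 for Igfbp4 (adjusted p = 0.00512). Both calls ended with the GC correction, at -0.55 (adjusted p = 0.178) for Igfbp7 and -0.85 (adjusted p = 0.0849) for Igfbp4. Control MI was above sham by 2.91 ± 0.36 for Igfbp7 (adjusted p = 6.28e-05) and 2.36 ± 0.37 for Igfbp4 (adjusted p = 0.000278).

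Against sham, Irx3 MI hearts still held more Igfbp7 (1.63 ± 0.34, adjusted p = 0.00112; 2.26 with the GC correction, adjusted p = 8.36e-05), with no overlap between the groups. The corresponding difference of Igfbp4, where the groups overlapped, was 0.92 ± 0.36 (adjusted p = 0.0376), and 1.47 with the GC correction (adjusted p = 0.00346). Without that correction the call ended when any sham library was left out, with adjusted p from 0.0509 to 0.0898, and without control MI replicate 1 (adjusted p = 0.0609) or 3 (adjusted p = 0.0595). It also ended without Irx3 MI replicate 1 (0.46, adjusted p = 0.226) or 3 (0.90, adjusted p = 0.0721).

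Igfbp3, the main carrier of IGFs in blood, rose with infarction, and its difference between the infarcted groups was not called. It had 25.5, 33.3, 58.7 and 25.5 CPM in Irx3 MI hearts, 49.0, 33.2, 44.9 and 63.0 CPM in control MI hearts, and 19.2, 15.8, 13.9 and 18.0 CPM in sham hearts. Both infarcted groups lay above sham and overlapped each other, and Irx3 MI replicate 3 stood above the other libraries of its group. Control MI was above sham by 1.51 ± 0.27 (adjusted p = 0.000569) and Irx3 MI above sham by 1.10 ± 0.26 (adjusted p = 0.00279). Irx3 MI differed from control MI by -0.41 ± 0.26 (adjusted p = 0.203, 95% interval -0.96 to 0.14), and by -0.01 with the GC correction (adjusted p = 0.978). Without Irx3 MI replicate 3 these became -0.75 against control MI (adjusted p = 0.0109), which is called, and 0.70 against sham (adjusted p = 0.011).

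Igfbp2, a binding protein abundant in the fetus and in liver, was near the limit of detection outside control MI hearts. It had 1, 8, 4 and 0 counts in Irx3 MI libraries, 83, 27, 12 and 70 counts in control MI libraries, and 0, 0, 1 and 2 counts in sham libraries. These sum to 13, 192 and 3 counts, and every control MI library lay above every library of the other groups. The ratio of Irx3 MI to control MI was 0.0678 (95% interval 0.0355 to 0.119), and that of control MI to sham, resting on 3 sham counts, was 52.1 (17.6 to 255); both intervals cover counting error only. In edgeR the differences were -3.82 ± 0.75 (adjusted p = 0.00113; -3.13 with the GC correction) and 5.47 ± 0.93 (adjusted p = 0.000446). As Igfbp2 passed the filter through control MI alone, these calls are no independent support for the direction. In RefSeq build GRCm38.p6 Igfbp2 and Igfbp5, which moved in opposite directions with Irx3, are neighbours on chromosome 1.

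**Figure D2:**
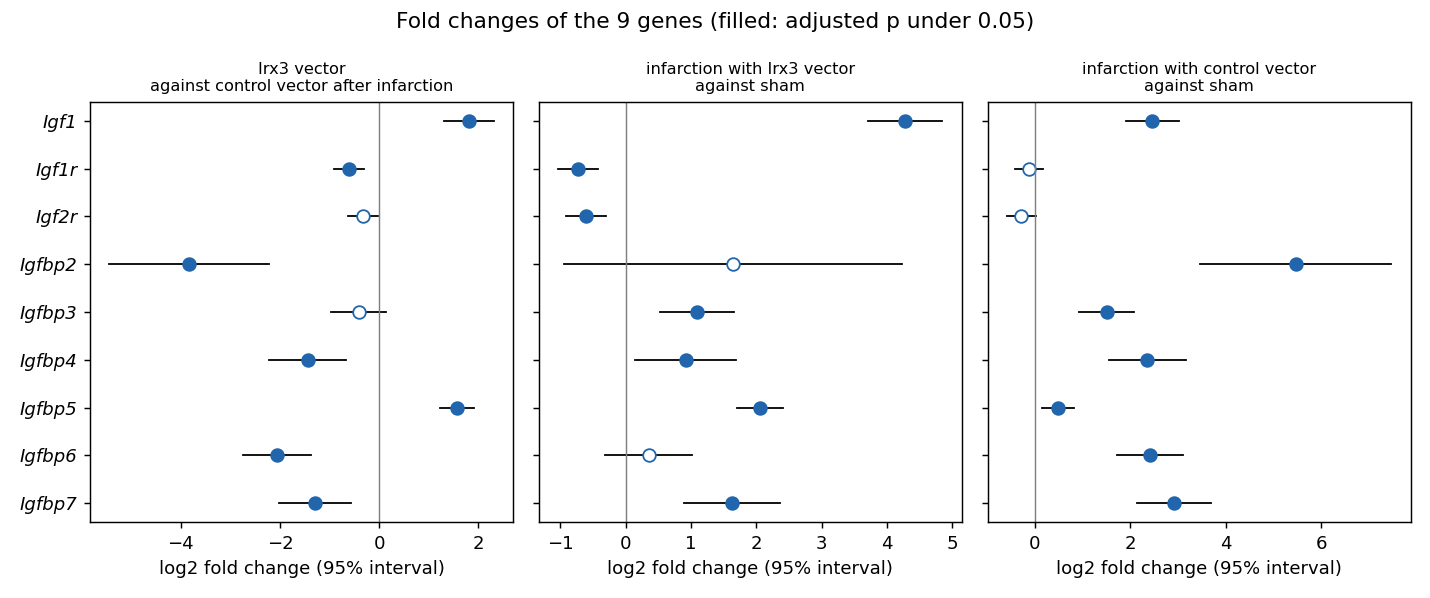
Log2 fold change of each member with its 95% interval, for Irx3 MI against control MI, Irx3 MI against sham and control MI against sham. With Irx3 after infarction Igf1 (1.81) and Igfbp5 (1.57) lie above 0, while Igfbp6 (-2.06), Igfbp4 (-1.44), Igfbp7 (-1.29) and Igf1r (-0.61) lie below.

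**Figure D3:**
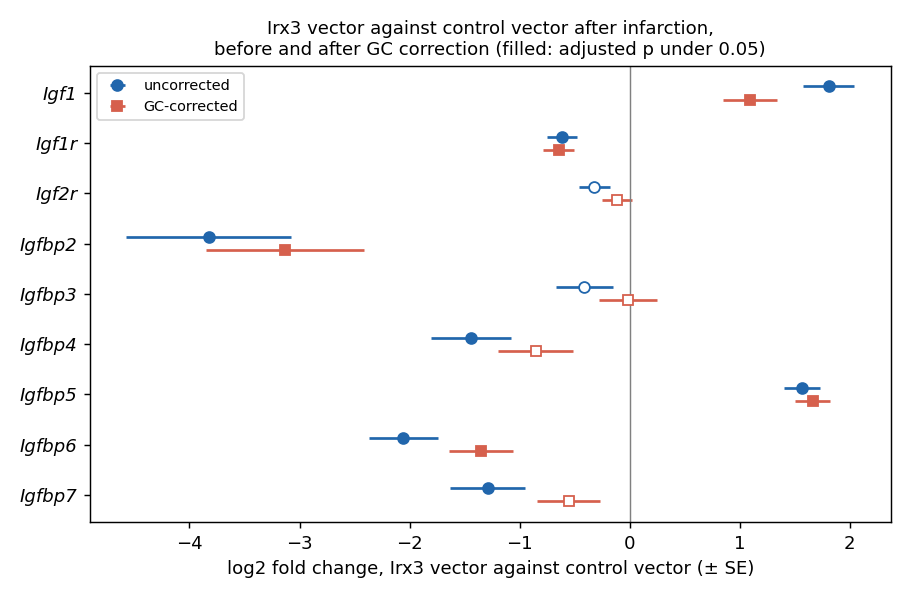
Log2 fold change of each member for Irx3 MI against control MI, without and with the correction for GC content. Igf1 shifts to 1.10 and Igfbp6 to -1.35, Igfbp5 stays above 1.5 at 1.66, and Igfbp3 moves to -0.01.

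The members differed in GC content. Igf1 had the lowest at 43.6%, followed by Igf1r at 49.2%, Igfbp5 at 50.3%, Igf2r at 51.5%, Igfbp3 at 53.6% and Igfbp4 at 55.9%. Igfbp7 had 59.0%, Igfbp2 59.2% and Igfbp6 60.7%. In the plot of corrected and uncorrected values the rise of Igf1 and the falls of Igfbp4, Igfbp6 and Igfbp7 shrink, whereas the rise of Igfbp5 and the fall of Igf1r do not.

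Compared between genes as mean CPM per kilobase of exon, Igfbp7 was the highest member in all 3 groups, at 416 in Irx3 MI, 1015 in control MI and 135 in sham hearts. In Irx3 MI hearts the order went on with Igfbp5 (75.1), Igfbp4 (54.7), Igf2r (33.1), Igfbp6 (24.4), Igfbp3 (11.4), Igf1 (6.14), Igf1r (3.49) and Igfbp2 (0.088). Neighbours from Igfbp5 down to Igf1 overlapped, library by library, and the remaining neighbours did not overlap. In control MI hearts it was Igfbp4 (149), Igfbp6 (102), Igf2r (41.4), Igfbp5 (25.3), Igfbp3 (15.2), Igf1r (5.35), Igf1 (1.75) and Igfbp2 (1.38), with overlap of Igfbp4 with Igfbp6 and of Igf1 with Igfbp2. In sham hearts it was Igf2r (50.3), Igfbp4 (28.9), Igfbp6 (19.1), Igfbp5 (18.1), Igf1r (5.80), Igfbp3 (5.35), Igf1 (0.317) and Igfbp2 (0.0281), with overlap of Igfbp6 with Igfbp5 and of Igf1r with Igfbp3. Igf1 ranked above its receptor in Irx3 MI hearts and below it in both other groups, by levels not corrected for GC content.

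The level of the ligand relative to its binding proteins was computed in each library as a description, with no test. Igf1 was 1.05% ± 0.158 of the summed binding protein level per kilobase in Irx3 MI hearts, 0.155% ± 0.0664 in control MI hearts and 0.155% ± 0.0206 in sham hearts (SD, n = 4 each). The lowest Irx3 MI library, at 0.912%, lay above the highest of the control MI libraries, at 0.212%. With Igfbp7 left out of the sum the shares were 3.62% ± 0.687, 0.654% ± 0.213 and 0.443% ± 0.00488. With levels corrected for GC content they were 0.594% ± 0.0903, 0.206% ± 0.0503 and 0.201% ± 0.00854, so the gap between the infarcted groups was smaller, and the lowest Irx3 MI library (0.490%) still lay above the highest control MI library (0.269%). These are shares of transcript, and say nothing of free IGF1 protein. The sum itself was 581 ± 167 CPM per kilobase in Irx3 MI, 1307 ± 616 in control MI and 206 ± 33.1 in sham hearts.

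The make-up of that sum changed as well. Igfbp5 was 13.9% ± 4.79 of it in Irx3 MI hearts, 2.29% ± 1.19 in control MI hearts and 8.88% ± 2.02 in sham hearts. Igfbp7 was 70.8% ± 3.81, 76.9% ± 2.93 and 64.9% ± 4.63 in the same groups. The Igfbp5 counts were 19.1 ± 9.93 times those of Igfbp6 in Irx3 MI libraries, 1.59 ± 0.883 times in control MI libraries and 5.09 ± 0.477 times in sham libraries, and the Irx3 MI libraries (12.5 to 33.9) did not overlap the control MI ones (0.891 to 2.82). These ratios of counts are not scaled by length, which is 6006 bases of exon for Igfbp5 and 1112 for Igfbp6, nor corrected for GC content. Per kilobase Igfbp5 lay below Igfbp6 in control MI hearts, at 25.3 against 102, and above it in Irx3 MI hearts, at 75.1 against 24.4.

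**Figure D4:**
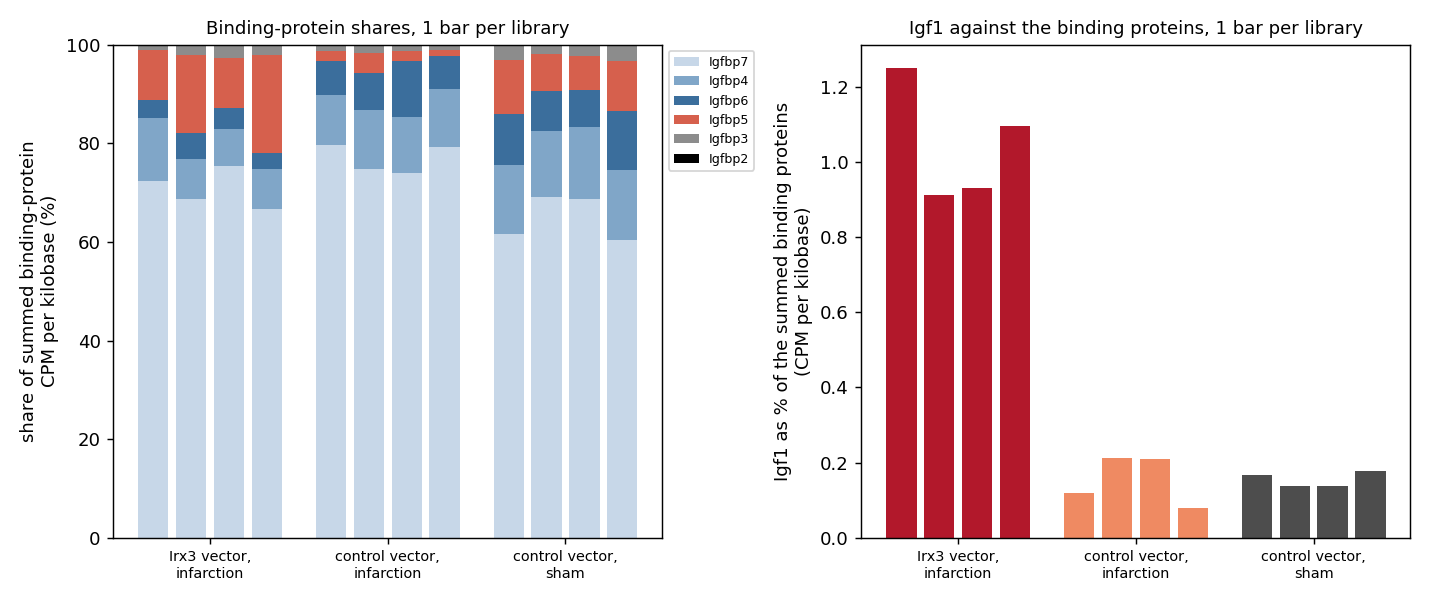
Igf1 as a percentage of the summed binding protein level per kilobase, and the share of each binding protein in that sum, for Irx3 MI, control MI and sham hearts. The Irx3 MI libraries lie between 0.912% and 1.25%, above every control MI and sham library.

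Of 82 other genes of the IGF axis, 79 were tested. The 3 that were not were Igfbp1, Irs4 and Igfbpl1, of which Igfbp1 had 0 counts in all 12 libraries, allowing a level of up to 0.0147 CPM over the 12 libraries by a floor of 3 counts. In Irx3 MI against control MI, 17 genes were higher (21.5%) and 34 lower (43%), with a median of -0.24, where 25.2% of all tested genes were higher and 24.1% lower. With the GC correction 5 were higher and 19 lower, where 2011 of all 15186 genes in that fit were higher and 1870 lower. In control MI against sham, 20 were higher (25.3%) and 25 lower (31.6%), with a median of -0.10, where 26.3% of all genes were higher and 22.4% lower, so the share of higher calls is near that of all genes. The 20 include Pappa2, Adam12 and Insrr, which passed the filter through infarcted hearts. Insrr lay above the filter limit in 3, 4 and 0 libraries of Irx3 MI, control MI and sham. The calls of these genes against sham are no independent support for a direction. These shares over all genes are the ones against which the uncorrected counts of each list below are to be read. Counts with the GC correction are to be read against the calls over all genes in that fit.

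Among 8 ligands and growth hormone axis genes, control MI hearts had 1 higher and 4 lower than sham, and Irx3 MI hearts 2 higher and 0 lower than control MI (1 and 0 with the GC correction). Ghr, the growth hormone receptor, averaged 120 ± 26.1 CPM in Irx3 MI, 64.5 ± 9.29 in control MI and 96.6 ± 3.15 in sham hearts, a difference of 0.89 ± 0.15 between the infarcted groups (adjusted p = 0.000472) that was not called with the GC correction (0.32, adjusted p = 0.079). Igf2 was low in all groups, at 1.01, 1.03 and 1.25 CPM in Irx3 MI, control MI and sham hearts, with no call. Jak2, the kinase of the growth hormone receptor, was higher with Irx3 (0.61 ± 0.15, adjusted p = 0.0053), which was not called with the GC correction (-0.02, adjusted p = 0.925). Stat5b, a transcription factor downstream of it, was lower in control MI than in sham hearts (-0.80 ± 0.12, adjusted p = 0.00026), at 98.0 against 170 CPM.

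Of 8 proteases and protease inhibitors that act on binding proteins, 6 were higher and 0 lower in control MI than in sham hearts, and 0 were higher and 5 lower in Irx3 MI than in control MI hearts. With the GC correction 0 were higher and 3 lower with Irx3. Stc2, stanniocalcin 2, which blocks the pappalysins that cut IGFBP4, averaged 21.4 ± 3.06 CPM in Irx3 MI, 110 ± 34.6 in control MI and 17.6 ± 1.53 in sham hearts, -2.36 ± 0.20 between the infarcted groups (adjusted p = 9.78e-06; -2.33 with the GC correction). Pappa, pappalysin 1 itself, averaged 4.50 ± 2.83, 8.17 ± 3.67 and 1.79 ± 0.661 CPM in those groups, and its difference of -0.85 between the infarcted groups was not called (adjusted p = 0.127; -1.27 with the GC correction, adjusted p = 0.0687). Adamts1, a secreted metalloprotease, averaged 80.9 ± 15.6, 171 ± 21.5 and 63.4 ± 17.1 CPM, -1.08 between the infarcted groups (adjusted p = 0.000599; -0.97 with the GC correction). Pappa2, pappalysin 2, which cuts IGFBP3 and IGFBP5, had 25, 62 and 1 counts in Irx3 MI, control MI and sham libraries together. It lay above the filter limit in 1, 4 and 0 libraries of these groups, so it passed through control MI and its calls in the counts above are no independent support for a direction. Adam12, a metalloprotease, averaged 18.7 ± 17.6 CPM in Irx3 MI, 12.8 ± 11.02 in control MI and 0.479 ± 0.351 in sham hearts, higher in control MI than in sham (4.70 ± 0.85, adjusted p = 0.000678), with 0.55 between the infarcted groups (adjusted p = 0.492; 0.65 with the GC correction). Adam12 lay above the filter limit in 4, 4 and 1 libraries of Irx3 MI, control MI and sham. It thus passed through the infarcted groups, and its call against sham is no independent support for a direction.

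Downstream of the receptor, Irs2, an adaptor of the insulin and IGF1 receptors, averaged 31.8 ± 9.42 CPM in Irx3 MI, 111 ± 6.03 in control MI and 118 ± 29.3 in sham hearts. Its difference between the infarcted groups was -1.80 ± 0.21 (adjusted p = 5.4e-05), and -1.23 with the GC correction (adjusted p = 0.000944). Irs1, the related adaptor, averaged 21.1 CPM in Irx3 MI, 34.0 in control MI and 46.6 in sham hearts, -0.69 between the infarcted groups (adjusted p = 0.00421; -0.59 with the GC correction). Insr, the insulin receptor, averaged 202, 171 and 305 CPM in those groups, and was lower in control MI than in sham (-0.84, adjusted p = 0.00273), with no call between the infarcted groups (0.24, adjusted p = 0.302; -0.17 with the GC correction, adjusted p = 0.482).

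Of 12 genes in the list of adaptors, which also holds Insr, Insrr, Ptpn1 and Ptpn11, 2 were higher and 5 lower with Irx3. With the GC correction these were 1 and 4. Of 23 PI3K-Akt-mTOR genes, 6 were higher and 11 lower, and 2 and 5 with the GC correction. Of 9 Ras-MAPK genes, 4 were higher and 3 lower, and 0 and 1 with the GC correction. Pik3r1, the regulatory subunit of PI3K, averaged 109 CPM in Irx3 MI, 174 in control MI and 427 in sham hearts, lower by -0.67 with Irx3 (adjusted p = 0.00416; -1.12 with the GC correction). Sos1, a Ras exchange factor, was higher by 0.95 (adjusted p = 8.35e-05), which was not called with the GC correction (0.12, adjusted p = 0.447). Mtor, the growth kinase, was lower by -0.59 (adjusted p = 0.00273), which was not called with the GC correction (-0.23, adjusted p = 0.17). Foxo3, a transcription factor that Akt keeps out of the nucleus, was lower by -1.35 (adjusted p = 5.4e-05; -0.71 with the GC correction, adjusted p = 0.00261). It belongs to a list of 12 FoxO factors and FoxO targets, of which 2 were higher and 7 lower, and 1 and 4 with the GC correction. Sesn1, a FoxO target that restrains mTOR, averaged 77.6 CPM in Irx3 MI, 172 in control MI and 355 in sham hearts, lower by -1.15 with Irx3 (adjusted p = 0.000439; -1.26 with the GC correction). Lrp1, a large endocytic receptor, averaged 1221 ± 585 CPM in Irx3 MI, 3968 ± 1879 in control MI and 735 ± 177 in sham hearts, and its difference of -1.70 between the infarcted groups (adjusted p = 0.00444) was not called with the GC correction (-1.03, adjusted p = 0.0645). It is a receptor for IGFBP3, in a list of 3 binding protein receptors of which 3 were higher in control MI than in sham hearts; 1 was higher and 1 lower with Irx3, and 0 and 0 with the GC correction. Of the 4 genes of the mannose phosphate system, which includes the makers of the tag that IGF2R binds, 2 were higher and 0 lower in control MI than in sham hearts, and 0 were higher and 2 lower with Irx3, with or without the GC correction.

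**Figure D5:**
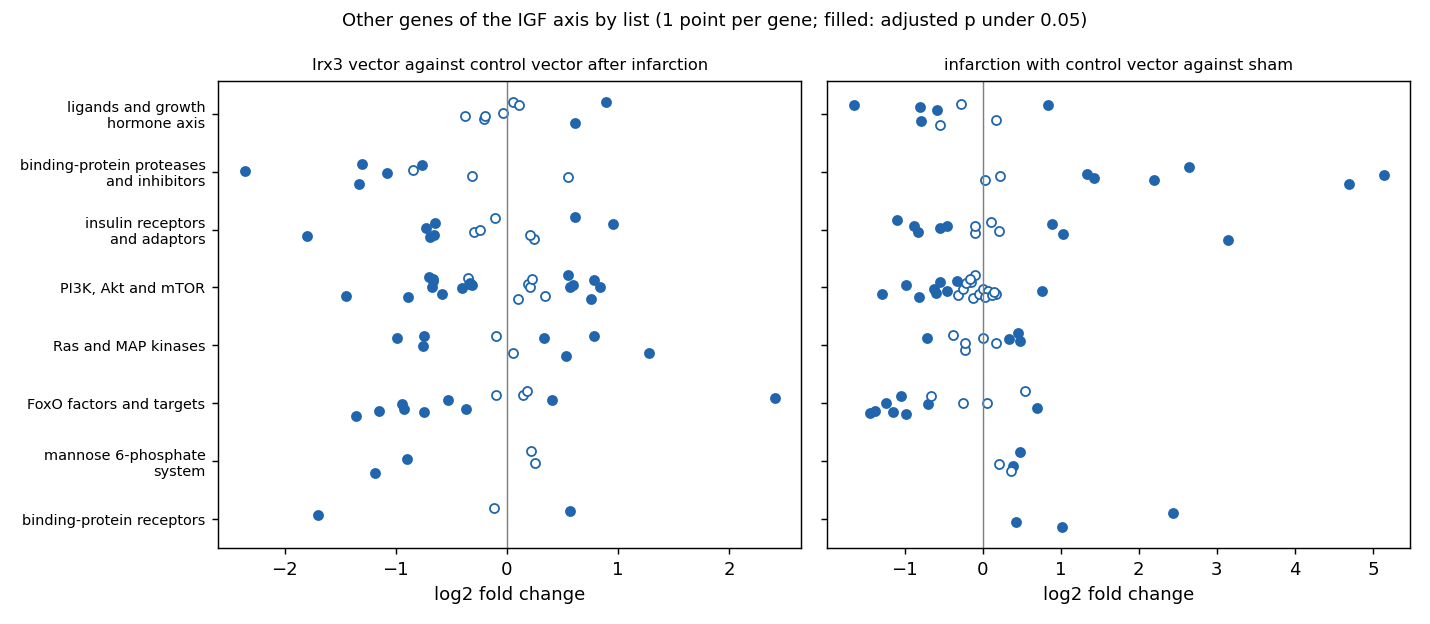
Log2 fold change of each gene in the lists of the IGF axis, for Irx3 MI against control MI and for control MI against sham. Each point is a gene, filled where its adjusted p in edgeR is under 0.05. In Irx3 MI against control MI hearts the list of 8 proteases and inhibitors has 0 genes higher and 5 lower, without the GC correction.

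Some markers of other cells also differed between the groups, in both directions. The summed CPM of 5 matrifibrocyte markers was 32.2 to 880 in Irx3 MI, 2098 to 9831 in control MI and 11.3 to 21.9 in sham hearts, with 5 of 5 lower with Irx3, and that of 9 macrophage markers was 827 to 1574, 1208 to 2796 and 378 to 463 in the same groups, with 3 of 9 lower with Irx3. Between the infarcted groups 3 of 8 fibroblast markers were lower and 0 higher, 1 of 6 activated fibroblast markers was higher and 0 lower, and 1 of 5 T and NK cell markers was higher and 0 lower. Of 7 endothelial markers 2 were higher and 5 lower, with sums of 896 to 1066 CPM in Irx3 MI, 1005 to 1333 in control MI and 1365 to 1528 in sham hearts, and of 7 mural markers 2 were higher and 2 lower. The 8 cardiomyocyte markers summed to 28020 to 52490 CPM in Irx3 MI, 24740 to 57220 in control MI and 86240 to 99610 in sham hearts, and no marker of these lists had 0 counts in a whole group. Over all tested genes 25.2% were higher and 24.1% lower in Irx3 MI than in control MI hearts. Marker counts near these shares are not read as a difference between the infarcted groups, and the marker values carry no GC correction. The part of these cells in the values of the 9 members was not tested.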

How the data were processed

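The deposited values are raw counts per gene, 1 column per library, as deposited by the authors. The submitters' processing notes name fastp and build GRCm39 (mm39); aligner, counter, annotation and strandedness are not stated there. No 2 libraries were duplicates. Differences were tested with edgeR 4.0.16 in R 4.3.3 (quasi-likelihood test, robust, TMM, filterByExpr by group with a minimum count of 10), with 1 term per group over all 12 libraries. P-values were adjusted over all 15742 genes. Tests on simulated data with 200 changed genes recovered 60% of those changed 2-fold and 95% of those changed 4-fold between the infarcted groups. Recovery was 52% and 89% for control MI against sham, and 44% and 93% for Irx3 MI against sham. The simulated data had no GC relation and far fewer changed genes than the 7760 called between the infarcted groups, so these shares need not hold here. GC content and exon length came from GENCODE M21 transcripts, matched by symbol (96.47% of tested genes); the correction is a smooth offset per library. Promoters came from RefSeq GRCm38.p6. DESeq2 1.42.0, other scalings and filters, a fold threshold and each library left out were tried as alternatives. Beside the members, the text names from each list up to 4 genes with the smallest adjusted p and, whatever their p, Igf2, Ghr, Insr, Irs1, Irs2, Pappa and Stc2. The genes most alike were ranked by root mean square difference of centred log2 CPM. The members and lists were chosen with earlier results of these data known.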

Additional observations from a re-analysis of the deposited data

Results flagged for a closer look

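A library stood apart from the other 3 of its group in 4 of 36 groups tested by Dixon's criterion, which sets the gap to the nearest library against the group's range at the 95% critical value; chance flags about 5% of such groups. Igfbp6 in Irx3 MI replicate 4 was low at 13.5 CPM, with a gap of 0.84 of the range. Igfbp6 in sham replicate 3 was low at 16.1 CPM, with a gap of 0.889. Igfbp5 in control MI replicate 3 was low at 122 CPM, with a gap of 0.95. The Irx3 gene in sham replicate 4 was low at 20.5 CPM, with a gap of 0.947.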

How the results depend on the processing

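Over 25 settings and 27 member results, 632 of 671 values kept their direction and side of the threshold, 30 lost a call, 8 gained one and 1 changed sign, uncalled: Igfbp3 with Irx3 was 0.2616 with the GC correction without replicate 4 of both infarcted groups. The uncalled Irx3 gene in control MI against sham likewise changed sign, to 0.0251 without these replicates and 0.0365 with the GC correction too. The Igf1 rise with Irx3 ran from 1.06 to 1.97, the Igfbp5 rise from 1.48 to 1.70 and the Igfbp6 fall from -2.27 to -1.03, called throughout. The members called lower with Irx3 after infarction were 3 with the GC correction, with the block plus GC correction, with a 1.5-fold threshold, and with the GC correction without replicate 4 of both infarcted groups, the last chosen after seeing the data; other axis genes were then 5, 5, 4 and 6 higher and 19, 13, 9 and 17 lower, and all genes called 3881, 2735, 2787 and 3633. Against sham, Irx3 MI had 1, 1, 0 and 1 members lower. With the 1.5-fold threshold, other axis genes were 10 higher and 10 lower in control MI against sham (3689 genes in all) and 10 higher and 20 lower in Irx3 MI against sham (5535 in all). DESeq2 called 1 member lower in control MI against sham, Igf2r (-0.31, adjusted p = 0.025), and Igf2r with Irx3 (-0.35, adjusted p = 0.00897). Longest-transcript lengths gave Igf1 shares of 1.435% in Irx3 MI and 0.2108% in sham hearts, and leaving out Igfbp7 gave 3.623%, 0.6535% and 0.4428% in Irx3 MI, control MI and sham hearts; GC-corrected levels, also added after seeing the data, gave 0.5938% in Irx3 MI and 0.201% in sham hearts. Same-numbered libraries deviated with correlations from -0.60 to 0.18, 2 of 12 over 0.1, and the numbers were not used as pairs in the main fit. With 4 libraries a group these correlations cannot show that the numbers carry no pairing. The replicate block called 3503 genes higher and 3176 lower with Irx3 and ended the Igfbp4 call against sham (0.84, adjusted p = 0.0837). The causes of these shifts were not tested. Counts of 13 and 3 limit Igfbp2 outside control MI hearts.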

Other observations

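The genes whose levels over the 12 libraries lay nearest each member's, by the root mean square difference of centred log2 CPM, were ranked as a description. For Igf1 they were Tgfb2 (0.392), Prss23 (0.406) and Ptprc (0.412). For Igfbp5 they were Acsl4 (0.213), Exoc5 (0.233) and Gimap4 (0.245). The nearest to Igfbp6 was Nbl1 (0.231), to Igfbp4 Bmp1 (0.114), to Igfbp7 Mrc2 (0.163) and to Igfbp3 Ly6e (0.157). The nearest to Igf1r was Herc2 (0.0828) and to Igf2r Amotl1 (0.0823). For the sparse Igfbp2 the nearest gene, Fibin, was far off at 0.989.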
